A study of Homo sapiens with 13 samples.

Results

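The genes described here are 6 components of the pathway that makes and uses PIWI-interacting RNAs (piRNAs): PIWIL1, PIWIL2, PIWIL4, PNLDC1, TDRD9 and ASZ1. They were looked up by gene name in 3 deposited gene tables of a study on how human germ cell-like cells move beyond their first specification, and all 6 were found among the 9706 genes that these tables list together. RNA had been measured by bulk sequencing in 10 libraries, which fall into 5 groups of 2. All groups came from WIS2, a human embryonic stem cell line. The study's methods call the 2 libraries of a group independent biological replicates, and the labels do not say what was repeated, so p-values measure the spread between these libraries.

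The 4i ESC group held embryonic stem cells kept in a medium with inhibitors of GSK3, ERK, p38 and JNK on mouse feeder cells, with NANOS3-tdTomato and DMRT1-Venus reporters and no transgene, sorted for TNAP. In the N3+PGCLC group, primordial germ cell-like cells (PGCLC) had been made from that reporter line with BMP2 (500 ng/ml), SCF (100 ng/ml), EGF (50 ng/ml) and a ROCK inhibitor (10 µM), with a TNAP+/NANOS3+ sort. DM+PGCLC were started in the same way. From day 3 their medium held retinoic acid (20 µM) and activin A (100 ng/ml) beside SCF and EGF for 6 more days, and they are named for DMRT1 although the labels give the TNAP+/NANOS3+ sort for them as well. DZ+PGCLC came from WIS2 cells with a DAZL-tdTomato reporter and 2 transgenes, SOX17 switched on by dexamethasone and DMRT1 switched on by doxycycline. They had 1 day of the BMP2 mixture with dexamethasone, followed by 2 days in which doxycycline was added and BMP2 was replaced by retinoic acid (20 µM) and activin A (100 ng/ml). The d4 DZ+PGCLC and the d8 DZ+PGCLC are the DAZL+ cells taken by sorting on day 4 and day 8 of induction. Reporter line, transgenes, cytokines, days and sort therefore differ together between the DZ+PGCLC groups and the others, and their parts cannot be told apart.

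PIWI proteins are Argonaute proteins of the germ line that carry piRNAs, short RNAs that guide them to transposon transcripts. Long precursors are cut on the surface of mitochondria by the nuclease PLD6, loaded onto a PIWI protein, shortened by the exonuclease PNLDC1 and methylated at their end by HENMT1. In mouse fetal male germ cells, piRNAs are multiplied in germ granules with the help of Tudor proteins and helicases such as TDRD9, and the nuclear PIWI protein MIWI2, the mouse counterpart of PIWIL4, directs DNA methylation to transposons. Loss of these genes in male mice leads to sterility, and for several of them transposons are derepressed.

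RefSeq promoters (GRCh38.p14, 250 bases before to 50 after the transcription start) are not reported here for PIWIL2 and PIWIL4. They were used for 4 of the 6 genes: PIWIL1, PNLDC1, TDRD9 and ASZ1. Those of the 3 that differed from 4i ESC in the libraries below are printed here because methylation of CpG-rich promoters is a known switch of germ line genes. They are given from the upstream end on the plus strand of GRCh38, chr12:130337637-130337936 for PIWIL1, chr6:159800026-159800325 for PNLDC1 and chr14:103928206-103928505 for TDRD9. Capitals mark CACGTG (an E-box), GGCGGGA (a site type bound by E2F6) and CCAAT, each searched on both strands, so that TCCCGCC and ATTGG are GGCGGGA and CCAAT on the other strand.
PIWIL1: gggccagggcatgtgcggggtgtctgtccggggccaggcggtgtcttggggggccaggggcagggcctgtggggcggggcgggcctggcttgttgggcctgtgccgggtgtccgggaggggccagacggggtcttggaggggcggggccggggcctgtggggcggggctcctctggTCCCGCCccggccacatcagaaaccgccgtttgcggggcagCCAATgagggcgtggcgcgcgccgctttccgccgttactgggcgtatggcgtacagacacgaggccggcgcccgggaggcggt
PNLDC1: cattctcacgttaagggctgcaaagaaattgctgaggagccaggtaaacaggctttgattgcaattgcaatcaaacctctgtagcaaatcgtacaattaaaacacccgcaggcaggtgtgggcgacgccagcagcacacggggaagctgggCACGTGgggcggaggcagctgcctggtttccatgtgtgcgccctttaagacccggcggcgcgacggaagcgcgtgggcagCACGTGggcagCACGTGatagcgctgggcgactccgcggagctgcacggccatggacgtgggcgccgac
TDRD9: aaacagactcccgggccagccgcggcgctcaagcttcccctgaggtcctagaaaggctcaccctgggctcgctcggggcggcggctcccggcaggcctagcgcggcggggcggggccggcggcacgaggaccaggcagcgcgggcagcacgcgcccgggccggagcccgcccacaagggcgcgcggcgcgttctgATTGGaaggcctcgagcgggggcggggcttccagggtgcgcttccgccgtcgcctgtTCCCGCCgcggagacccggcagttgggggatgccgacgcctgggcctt

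PNLDC1 held 3 CACGTG motifs, at -99, -19 and -8 from its RefSeq start (first base of the match). That start lies downstream of the GENCODE 44 gene start given below, so the motifs at -19 and -8 fall within that gene model. Of 35116 RefSeq promoters of the same length, 7.26% held this motif and 0.094% held 3 or more. PIWIL1 held a GGCGGGA match at -74 and a CCAAT match at -33, and TDRD9 held them at 3 and -55. GGCGGGA was in 15.4% and CCAAT in 34.6% of all promoters. The printed windows held 30 CpG (PIWIL1), 26 CpG (PNLDC1) and 41 CpG (TDRD9), against a median of 14 over all promoters. As many or more CpG were in 22.4% of promoters for PIWIL1, 30.1% for PNLDC1 and 6.69% for TDRD9. The ASZ1 window held 29 CpG and no match to these motifs. ACANTGT, a core of the motif bound by DMRT proteins, was in none of the 4 windows and in 5.36% of all. The DMRT1 motifs that the study tested at DAZL do not all hold this core. The study also placed most DMRT1 peaks of germ cell genes in introns or between genes. These windows therefore cannot show whether a gene has a DMRT1 site. A match is a run of letters. Binding of DMRT1 had been measured by CUT&RUN in d4 DZ+PGCLC, and those samples were not analysed here. From its binding data the study lists PIWIL1 and PIWIL4 among the genes nearest to DMRT1 peaks and reports peaks at PIWIL2.

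Levels were deposited as log2(RPKM + 0.1), where RPKM is reads scaled by gene length and by all mapped reads, so that 0 RPKM stands at the log2 of 0.1 and is called listed at 0 below. Such a listing need not mean that a gene had no reads in the authors' counts, since 53 genes at 0 in all 10 libraries are in tables that had been selected by a fit of counts. From the step size of low values, depth was estimated to be lowest in d4 DZ+PGCLC replicate 2 and highest in d8 DZ+PGCLC replicate 1, at 0.665 and 1.134 times that of 4i ESC replicate 1. Between 353 and 1036 genes were listed at 0 per library, the fewest (353 and 381) in d8 DZ+PGCLC, and none of 10 housekeeping genes was. Libraries of a group correlated at 0.966 to 0.984 across genes, which are not independent replicates. DMRT1 stood at 1.89 to 2.84 RPKM in 4i ESC and N3+PGCLC, at 81.4 and 83.4 RPKM in DM+PGCLC, and at 4120 to 5481 RPKM in the DZ+PGCLC libraries, where a DMRT1 transgene had been induced. DAZL reached 2.31 to 11.3 RPKM in DZ+PGCLC and at most 0.083 RPKM elsewhere. The 7 early germ cell markers summed to 52.5 and 59.0 RPKM in 4i ESC, 295 to 664 RPKM in N3+PGCLC and DM+PGCLC, and 119 to 223 RPKM in DZ+PGCLC. In DZ+PGCLC SOX17, which was also a transgene there, stood at 83.5 to 202 RPKM and was the largest part of each sum. TFCP2L1 and PRDM1 stood above 4i ESC in every DZ+PGCLC library. By contrast TFAP2C stood at 2.21 to 3.19 RPKM, under its 42.3 and 44.1 RPKM in 4i ESC, and NANOS3 at 0 to 0.256 RPKM. KIT stood at 0.598 to 1.03 RPKM, under its 4.64 and 6.03 RPKM in 4i ESC. CD38 stood at 0.133 to 0.485 RPKM, against 0.414 and 0.523 RPKM in 4i ESC. Of 6 later germ cell markers, DDX4, MAEL and SYCP3 were not in the tables, and of 6 meiotic and spermatogenic markers STRA8 alone was, listed at 0 in 9 of 10 libraries. Markers of endoderm (3 of 5 in the tables) summed to 57.7 and 390 RPKM in N3+PGCLC and to 0.72 to 8.11 RPKM elsewhere, and those of mesoderm and amnion (4 of 5) to 81.5 and 313 RPKM in N3+PGCLC, 82.8 and 117 RPKM in DM+PGCLC and 5.94 to 13.8 RPKM elsewhere. The DM+PGCLC sum was nearly all TBXT (80.5 and 115 RPKM), with HAND1, GATA3 and ISL1 under 1 RPKM. Pluripotency markers (6 of 6) went from 1734 and 1588 RPKM in 4i ESC to 56.8 and 52.6 RPKM in d8 DZ+PGCLC, fibroblast and stroma markers (5 of 5) from 469 and 840 RPKM to 44.6 and 40.2 RPKM, and gonadal soma markers (5 of 6) from 9.11 and 11.5 RPKM to 51.5 and 58.1 RPKM, of which AMH was 40.9 and 45.8 RPKM. Some single markers ran otherwise. NANOG stood at 127 to 222 RPKM in N3+PGCLC and DM+PGCLC, against 52.9 and 47.8 RPKM in 4i ESC. POSTN stood at 103 and 77.0 RPKM in d4 DZ+PGCLC, against 0.96 and 2.96 RPKM in 4i ESC. Gonadal soma markers already summed to 30.4 to 38.9 RPKM in N3+PGCLC and DM+PGCLC. GATA4 stood at 10.8 to 20.0 RPKM there and at 3.85 and 4.74 RPKM in d8 DZ+PGCLC. The part of these cell types in the differences below was not tested. In bulk RNA, fewer cells of a type and less RNA per cell cannot be told apart.

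The PGCLC groups differed in which of these genes were called against 4i ESC. N3+PGCLC had none of the 6 called by limma, with 1 (PNLDC1) at an unadjusted p under 0.05. DM+PGCLC had PNLDC1, TDRD9 and PIWIL4 higher, d4 DZ+PGCLC had PIWIL2 and PNLDC1 higher, and d8 DZ+PGCLC had PIWIL2, PNLDC1, TDRD9 and PIWIL1 higher, while no member was called lower than in 4i ESC (at an unadjusted p under 0.05, PIWIL2 was lower in DM+PGCLC). A call required a difference of more than 2-fold with an adjusted p under 0.05 in a limma fit of all 10 libraries, with adjustment over the 9706 genes. Over all these genes, 26.1% were called in N3+PGCLC (13.8% higher and 12.3% lower) and 44.1% in DM+PGCLC (23.0% higher and 21.1% lower). In d4 DZ+PGCLC 42.0% were called (17.3% higher and 24.6% lower), and in d8 DZ+PGCLC 55.9% (28.5% higher and 27.4% lower). The median log2 difference of the 6 genes was 0 in N3+PGCLC, 1.72 in DM+PGCLC, 0.89 in d4 DZ+PGCLC and 2.02 in d8 DZ+PGCLC, where all genes had medians of 0, 0, -0.1 and 0.01. The tables hold only genes that the authors had already selected as changed in at least 1 of 3 comparisons with 4i ESC. Those were of N3+PGCLC, DM+PGCLC and d8 DZ+PGCLC, so calls in them repeat the selection on the same libraries. These shares over all genes therefore describe selected genes, and the 4 comparisons share the 4i ESC libraries. With 1 RPKM in place of 0.1 added before the logarithm, which shrinks the differences of low genes, PIWIL2 and PNLDC1 were no longer called in d4 DZ+PGCLC against 4i ESC, nor PIWIL1 and TDRD9 in d8 DZ+PGCLC, nor PIWIL4 from N3+PGCLC to DM+PGCLC and from there to d8 DZ+PGCLC, nor TDRD9 from day 4 to day 8. A filter of at least 1 RPKM in 2 libraries was passed by 4 of the 6 genes, not by PIWIL1 and ASZ1.

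**Figure D1:**
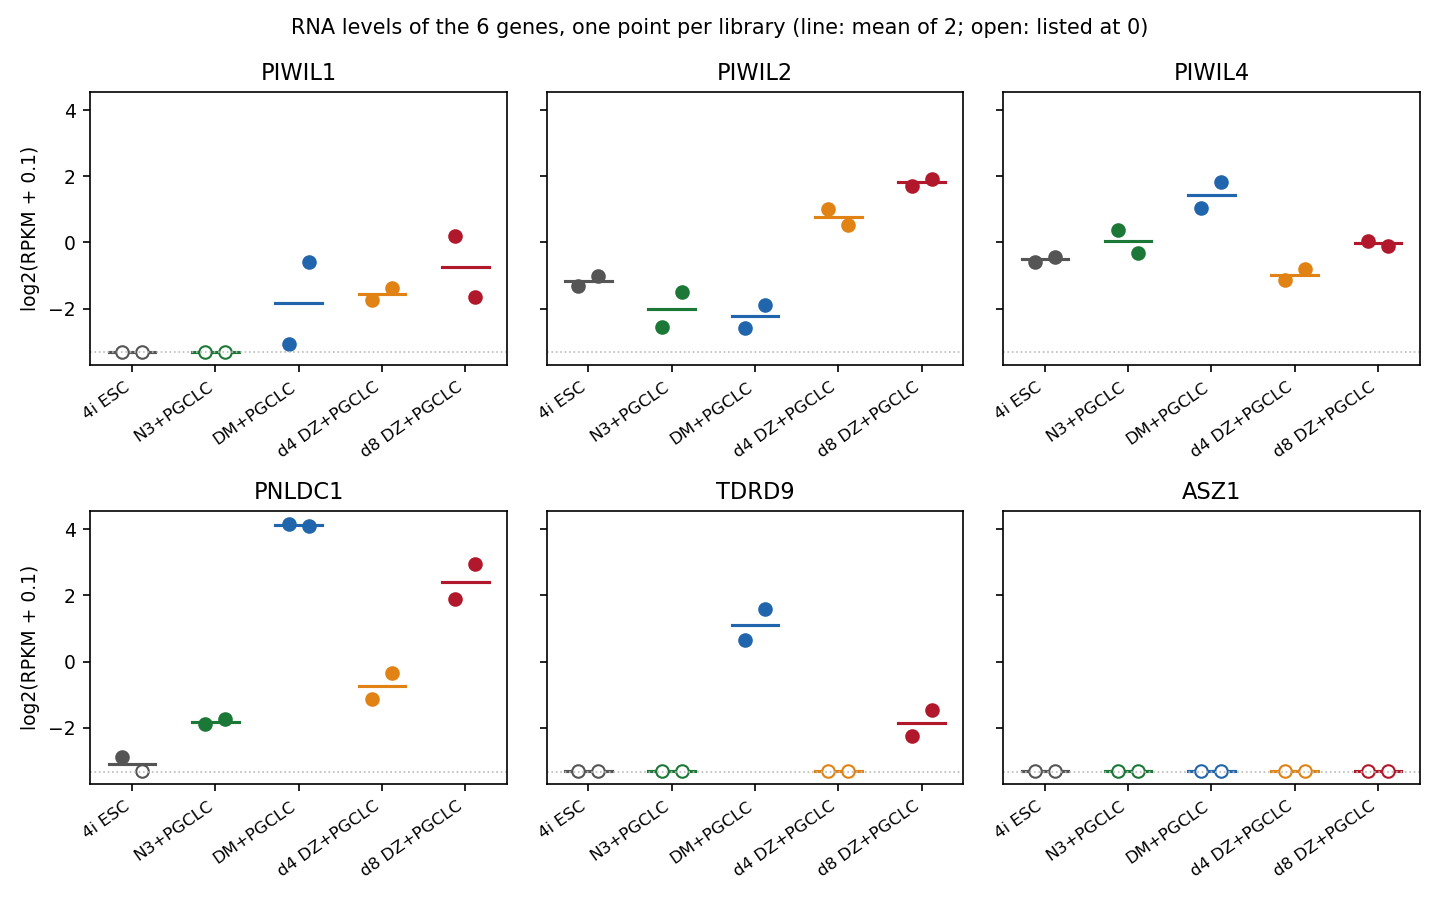
RNA level of each of the 6 genes on the log2(RPKM + 0.1) scale (vertical axis) in the 5 groups (horizontal axis), with a point per library, a line at the mean of the 2 libraries, open points for libraries listed at 0 and a dotted line at the value of 0 RPKM. PIWIL2 was highest in the DZ+PGCLC libraries, PNLDC1, TDRD9 and PIWIL4 in the DM+PGCLC libraries, and ASZ1 was listed at 0 throughout.

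Of the PIWI proteins, PIWIL2, known in mice as MILI and active from fetal germ cells onward, had its lowest levels in the PGCLC without transgenes. The gene (ENSG00000197181.12) lies on chromosome 8 from 22275316 to 22357568 on the plus strand (GENCODE 44 on GRCh38, as for the other genes). It stood at 0.303 and 0.388 RPKM in 4i ESC, at 0.07 and 0.255 RPKM in N3+PGCLC and at 0.068 and 0.167 RPKM in DM+PGCLC. It stood at 1.93 and 1.34 RPKM in d4 DZ+PGCLC and at 3.18 and 3.68 RPKM in d8 DZ+PGCLC, so that no DZ+PGCLC library overlapped any other. An estimated 81 to 373 reads lay behind the DZ+PGCLC values and 5 to 29 reads behind the rest. On the log2(RPKM + 0.1) scale the means were -1.17 ± 0.20, -2.02 ± 0.75, -2.24 ± 0.48, 0.77 ± 0.36 and 1.81 ± 0.14 in the same order (SD, n = 2). PIWIL2 was higher than in 4i ESC by 1.95 ± 0.45 log2 units (SE) in d4 DZ+PGCLC (adjusted p = 0.00899) and by 2.99 ± 0.45 in d8 DZ+PGCLC (adjusted p = 0.000945). Its difference of d8 DZ+PGCLC from DM+PGCLC was 4.05 ± 0.45 (adjusted p = 0.000216), and that of d4 DZ+PGCLC from DM+PGCLC was 3.01 ± 0.45 (adjusted p = 0.00105). Between day 4 and day 8 the difference was 1.04 with a 95% interval from -0.02 to 2.1 (adjusted p = 0.121), and the order of 4i ESC, N3+PGCLC and DM+PGCLC was not resolved. Without 4i ESC replicate 1 the d4 DZ+PGCLC call was lost (adjusted p = 0.0514), and without either N3+PGCLC library PIWIL2 was called lower in DM+PGCLC than in 4i ESC (adjusted p = 0.0472 and 0.0463, against 0.0809 with all libraries).

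PIWIL4, the human counterpart of the nuclear MIWI2, was listed above 0 RPKM in all 10 libraries and was highest in DM+PGCLC. The study describes PIWIL4 as undetectable in its single-cell RNA sequencing, which is another measure than the bulk values here. The gene (ENSG00000134627.12) is on the plus strand of chromosome 11, from 94543840 to 94621421. Its levels were 0.562 and 0.644 RPKM in 4i ESC, 1.2 and 0.705 RPKM in N3+PGCLC, and 1.96 and 3.46 RPKM in DM+PGCLC. In d4 DZ+PGCLC it stood at 0.35 and 0.47 RPKM and in d8 DZ+PGCLC at 0.931 and 0.83 RPKM. The DM+PGCLC pair was above every other library and the d4 DZ+PGCLC pair below every other. PIWIL4 was higher in DM+PGCLC than in 4i ESC by 1.95 ± 0.41 log2 units (adjusted p = 0.00559), and lower in d4 DZ+PGCLC than in DM+PGCLC by a difference of -2.42 ± 0.41 (adjusted p = 0.00189). The comparison of d8 DZ+PGCLC with DM+PGCLC gave -1.47 ± 0.41 (adjusted p = 0.0149), a call lost without DM+PGCLC replicate 2 (0.0803) or d8 DZ+PGCLC replicate 2 (0.0676). DM+PGCLC exceeded N3+PGCLC by 1.41 ± 0.41 (adjusted p = 0.0344), but this call was lost without N3+PGCLC replicate 2 (0.15), without DM+PGCLC replicate 2 (0.168), without a library of 4i ESC (0.0545 and 0.0544) or of d8 DZ+PGCLC (0.06 and 0.0606), and with the 4 libraries alone (0.176). For N3+PGCLC and for day 4 and day 8 of the DZ+PGCLC, the differences from 4i ESC were 0.54 (95% interval -0.42 to 1.5), -0.47 (-1.43 to 0.49) and 0.48 (-0.48 to 1.44), none of them called.

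The PIWIL4 value shares sequence with other genes. In GENCODE 44, 602 of its exonic bases also belong to FUT4, a fucosyltransferase gene on the same strand, and 489 to the antisense gene PIWIL4-AS1 on the other strand. The sources used here do not state whether the counting used strand, so reads in these parts may have been left out or assigned to either gene. FUT4 stood at 4.26 and 4.89 RPKM in 4i ESC, 9.63 and 5.38 RPKM in N3+PGCLC and 12.3 and 11.9 RPKM in DM+PGCLC, then at 1.14 and 1.55 RPKM in d4 DZ+PGCLC and 2.36 and 1.78 RPKM in d8 DZ+PGCLC. Like PIWIL4, it was higher in DM+PGCLC than in 4i ESC (1.39 ± 0.33, adjusted p = 0.00964) and lower in d8 DZ+PGCLC than in DM+PGCLC (-2.51 ± 0.33, adjusted p = 0.000465). Unlike PIWIL4, FUT4 was called lower than in 4i ESC in d8 DZ+PGCLC (-1.12 ± 0.33, adjusted p = 0.0194). The part of FUT4 reads in the PIWIL4 value was not tested.

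PIWIL1, the PIWI protein of later spermatogenesis in mice (MIWI), was listed at 0 in all 4 libraries of 4i ESC and N3+PGCLC. The gene (ENSG00000125207.7) is on the plus strand of chromosome 12, from 130337887 to 130372637. It stood at 0.02 and 0.565 RPKM in DM+PGCLC, an estimated 1 and 40 reads. It stood at 0.2 and 0.288 RPKM in d4 DZ+PGCLC (14 and 16 reads) and at 1.04 and 0.216 RPKM in d8 DZ+PGCLC (99 and 20 reads). Replicates disagreed more for PIWIL1 than for the other members, and its ranges in DM+PGCLC and in both DZ+PGCLC groups overlapped. It was called higher in d8 DZ+PGCLC than in 4i ESC (adjusted p = 0.0257), with no fold given because 4i ESC was listed at 0. That call rested on single libraries: it was lost without d8 DZ+PGCLC replicate 1 (adjusted p = 0.185) and without either 4i ESC library (0.0883 and 0.0872). The adjusted p against 4i ESC was 0.161 for DM+PGCLC and 0.109 for d4 DZ+PGCLC, and without DM+PGCLC replicate 1 the former was 0.02. With a pseudocount of 0.01 RPKM both were under 0.05 (0.0486 and 0.0229). The d8 DZ+PGCLC difference from DM+PGCLC was 1.09 (95% interval -0.84 to 3.02, adjusted p = 0.274). It was 2.33 without DM+PGCLC replicate 2 (adjusted p = 0.0288) and -0.15 without DM+PGCLC replicate 1.

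Of the genes that process precursors, PNLDC1, the exonuclease that trims piRNA precursors to length, gave the largest differences from 4i ESC among the 6 genes in DM+PGCLC and in both DZ+PGCLC groups. The gene (ENSG00000146453.13) is on the plus strand of chromosome 6, from 159800249 to 159820704. It had about 1 read in 4i ESC replicate 1 (0.035 RPKM), was listed at 0 in replicate 2, and stood at 0.169 and 0.201 RPKM in N3+PGCLC, an estimated 5 and 6 reads. In DM+PGCLC it stood at 17.9 and 17.15 RPKM, an estimated 489 and 504 reads. It stood at 0.354 and 0.69 RPKM in d4 DZ+PGCLC and at 3.62 and 7.58 RPKM in d8 DZ+PGCLC. No library of any group overlapped another group, in the order 4i ESC, N3+PGCLC, d4 DZ+PGCLC, d8 DZ+PGCLC, DM+PGCLC. On the log2(RPKM + 0.1) scale, which understates changes from such low levels, DM+PGCLC exceeded N3+PGCLC by 5.95 ± 0.46 (adjusted p = 0.000248) and 4i ESC by 7.24 ± 0.46 (adjusted p = 5.31e-05). Against 4i ESC the difference was 5.52 ± 0.46 in d8 DZ+PGCLC (adjusted p = 9.3e-05) and 2.36 ± 0.46 in d4 DZ+PGCLC (adjusted p = 0.00427). PNLDC1 was higher on day 8 than on day 4 of the DZ+PGCLC by 3.16 ± 0.46 (adjusted p = 0.00315). In d8 DZ+PGCLC it was lower than in DM+PGCLC, with a difference of -1.72 ± 0.46 (adjusted p = 0.0128), a call lost without d8 DZ+PGCLC replicate 1 (0.0742) or with a pseudocount of 0.01 RPKM (0.0894). The neighbours 4i ESC and N3+PGCLC (1.29, 95% interval 0.20 to 2.38, adjusted p = 0.067) and N3+PGCLC and d4 DZ+PGCLC (1.07, 95% interval -0.01 to 2.16, adjusted p = 0.0931) were not separated by the test.

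ASZ1, also known as GASZ, an ankyrin repeat protein that in mice holds the processing machinery at mitochondria, was listed at 0 in all 10 libraries. It was 1 of 53 such genes among the 9706, so that no comparison of it could be made from these values. Since the authors' count fit had selected it as changed, its 0 RPKM does not show that it had no reads. The gene (ENSG00000154438.8), on the minus strand of chromosome 7 from 117363222 to 117428123, lies within that of CFTR on the other strand, and no exonic bases are shared.

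Of the germ granule genes, TDRD9, a helicase with a Tudor domain that in mice acts with MIWI2, was listed at 0 in all 6 libraries of 4i ESC, N3+PGCLC and d4 DZ+PGCLC. The gene (ENSG00000156414.19) is on the plus strand of chromosome 14, from 103928456 to 104052667. It stood at 1.47 and 2.89 RPKM in DM+PGCLC, an estimated 99 and 211 reads, and at 0.109 and 0.261 RPKM in d8 DZ+PGCLC, 11 and 25 reads. The 3 states did not overlap. It was called higher than in 4i ESC in DM+PGCLC (adjusted p = 0.000114) and in d8 DZ+PGCLC (adjusted p = 0.0088), and no fold is given against groups listed at 0. The fit shares its spread over all groups. For TDRD9 the groups listed at 0 had an SD of 0 log2 units, against 0.66 in DM+PGCLC and 0.56 in d8 DZ+PGCLC. Its standard errors and p-values therefore understate the spread between replicates. TDRD9 was lower in d8 DZ+PGCLC than in DM+PGCLC by a difference of -2.98 ± 0.36 (adjusted p = 0.000304). The d8 DZ+PGCLC libraries were also the deepest, and the calls at this low level were the less stable: that against 4i ESC was lost without d8 DZ+PGCLC replicate 2 (0.0535), and that against d4 DZ+PGCLC (adjusted p = 0.0206) was lost without replicate 1 or 2 of d4 DZ+PGCLC (0.0773 and 0.0714) or replicate 2 of d8 DZ+PGCLC (0.107).

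Set side by side, the 2 routes to activin A and retinoic acid differed in which genes were high. From N3+PGCLC to DM+PGCLC, 3 of the 6 genes were called higher (PNLDC1, TDRD9 and PIWIL4) and none lower, where 25.9% of all genes were called, 13.9% higher and 12.1% lower. From DM+PGCLC to d8 DZ+PGCLC, PIWIL2 was higher and PIWIL4, PNLDC1 and TDRD9 were lower, where 55.7% of all genes were called, 28.1% higher and 27.5% lower. From day 4 to day 8 of the DZ+PGCLC, PNLDC1 and TDRD9 were higher, where 23.7% of all genes were called, 15.4% higher and 8.30% lower. Against N3+PGCLC, 1 member (PIWIL2) was higher and none lower in d4 DZ+PGCLC, where 39.6% of all genes were called (15.5% higher and 24.1% lower). In d8 DZ+PGCLC 4 members were higher than in N3+PGCLC and none lower, where 51.1% of all genes were called (25.5% higher and 25.6% lower). From DM+PGCLC to d4 DZ+PGCLC 1 member was higher and 3 were lower, where 45.0% of all genes were called (18.8% higher and 26.1% lower). Of the 3 genes high in DM+PGCLC, PNLDC1 and TDRD9 were thus called higher on day 8 than on day 4 and lower on day 8 than in DM+PGCLC. When libraries were centred on the median difference of abundant genes, the median of all genes moved to 0.34 for d8 DZ+PGCLC against 4i ESC and 0.43 against DM+PGCLC, and every call of a member stood.

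**Figure D2:**
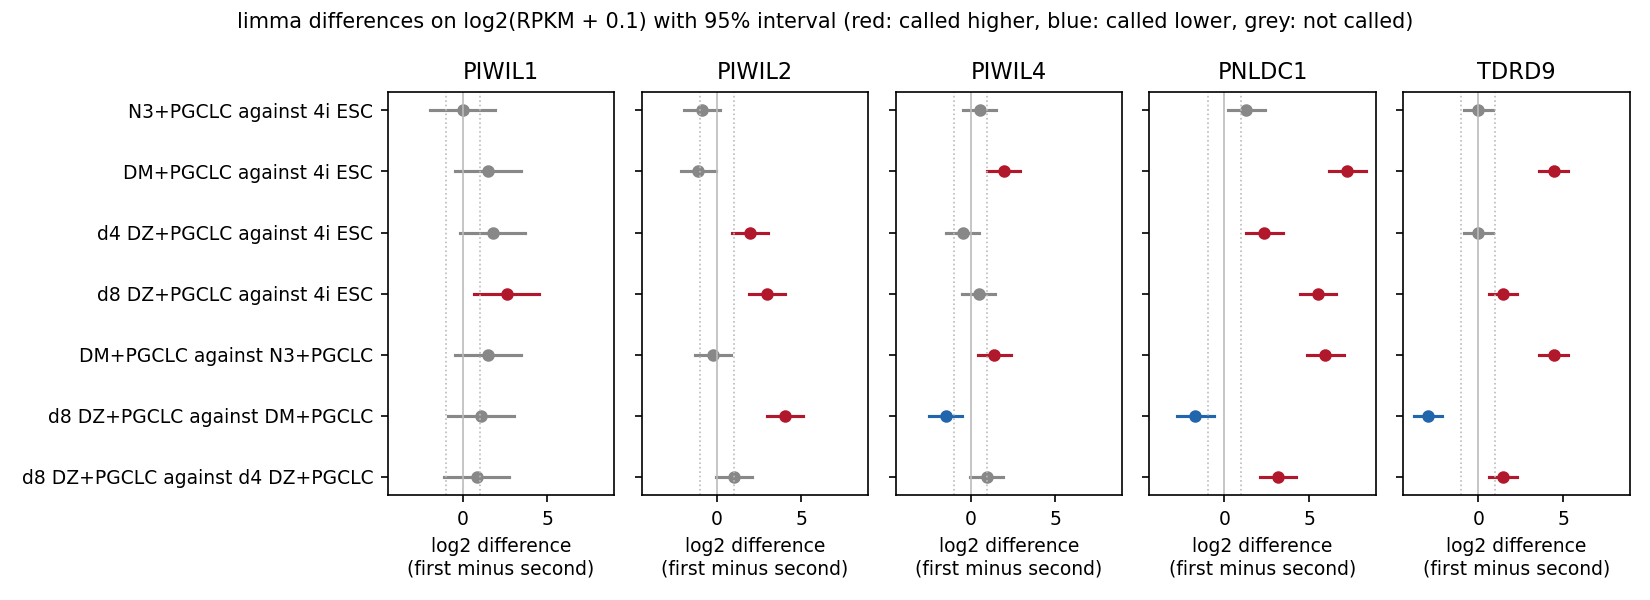
Differences between group means on the log2(RPKM + 0.1) scale (horizontal axis, first group minus second) for 5 genes in 7 comparisons (vertical axis), as points with 95% intervals from limma, red for called higher, blue for called lower and grey for not called, with dotted lines at a fold change of 2. PIWIL2 alone was called higher in d8 DZ+PGCLC than in DM+PGCLC, where PIWIL4, PNLDC1 and TDRD9 were called lower, and differences from groups listed at 0 (PIWIL1, TDRD9) depend on the added 0.1.

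The rest of the pathway was read from a list of 36 genes by role, of which 22 were in the tables, 16 of them besides the 6 above. PIWIL3, DDX4, MAEL, TDRD1, TDRD5, TDRD12, TDRD15, RNF17, EXD1, GTSF1, MORC1, DNMT3L, PRMT5 and WDR77 were not listed there. Against 4i ESC, none of the 16 was called higher and 3 lower in N3+PGCLC (13.8% and 12.3% of all genes), and 3 were higher and 2 lower in DM+PGCLC (23.0% and 21.1% of all genes). There were 4 higher and 2 lower in d4 DZ+PGCLC (17.3% and 24.6% of all genes), and 5 higher and 2 lower in d8 DZ+PGCLC (28.5% and 27.4% of all genes). From N3+PGCLC to DM+PGCLC 1 was higher and none lower (13.9% and 12.1% of all genes), and from d4 to d8 DZ+PGCLC 2 were higher and none lower (15.4% and 8.30% of all genes). From DM+PGCLC to d8 DZ+PGCLC 10 were higher and none lower (28.1% and 27.5% of all genes). Genes at or near 0 outside DZ+PGCLC, such as GPAT2 and TDRD6, may have entered the tables only through the d8 DZ+PGCLC comparison. This count may in part follow from that selection. Over the 22 genes together the median log2 difference from DM+PGCLC to d8 DZ+PGCLC was 1.07, where that of all genes was 0.09.

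Besides PNLDC1 and ASZ1, 5 genes of precursor processing were listed. GPAT2, a mitochondrial acyltransferase family member needed for piRNA production in mice, was listed at 0 in the 6 libraries of 4i ESC, N3+PGCLC and DM+PGCLC and stood at 0.089 to 0.238 RPKM in the 4 DZ+PGCLC libraries. It was called higher than in 4i ESC on day 4 (adjusted p = 0.00439) and day 8 (adjusted p = 0.00256). As for TDRD9, the groups listed at 0 had an SD of 0, so these p-values understate the spread between replicates. TDRKH, the mitochondrial Tudor protein that recruits PNLDC1 in mice, was present everywhere, at 4.17 to 13.4 RPKM. Its mean was lowest in DM+PGCLC (6.29 and 4.17 RPKM), where PNLDC1 was highest, and higher by 1.25 ± 0.25 in d8 DZ+PGCLC (adjusted p = 0.00296). DM+PGCLC was not called against 4i ESC (-0.97, under 2-fold) or N3+PGCLC (-0.59, adjusted p = 0.104). Nor was d4 DZ+PGCLC called against DM+PGCLC (0.32, adjusted p = 0.305). HENMT1, the methyltransferase that protects piRNA ends, was higher than in 4i ESC in DM+PGCLC (1.66 ± 0.43, adjusted p = 0.0128) and in d4 DZ+PGCLC (1.27 ± 0.43, adjusted p = 0.0384). MOV10L1, the helicase that feeds precursors to processing, stood at 0.098 and 0.117 RPKM in d4 DZ+PGCLC and at 1.1 and 1.09 RPKM in d8 DZ+PGCLC, a difference of 2.52 ± 0.64 (adjusted p = 0.0222). It stood at 0.646 and 1.2 RPKM in 4i ESC, so that it was lower on day 4 (-2.25 ± 0.64, adjusted p = 0.0203) and not called on day 8 (0.28, adjusted p = 0.728). PLD6 was higher in d8 DZ+PGCLC than in DM+PGCLC (1.60 ± 0.61, adjusted p = 0.0492) and was not called against 4i ESC (1.09, adjusted p = 0.149).

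Among Tudor and granule genes besides TDRD9, TDRD6 and STK31 were called higher than in 4i ESC on both days of the DZ+PGCLC and FKBP6 on day 8, TDRD6 and FKBP6 at levels under 1 RPKM. TDRD6, a scaffold of germ granules in mouse spermatids, stood at 0 to 0.017 RPKM in the 6 libraries of the other groups, at 0.092 and 0.228 RPKM on day 4 and at 0.365 and 0.384 RPKM on day 8 (adjusted p against 4i ESC 0.00517 and 0.000345). FKBP6, a co-chaperone of piRNA loading in mice, stood at 0.355 and 0.402 RPKM in d8 DZ+PGCLC and was listed at 0 in every other library but 4i ESC replicate 1 (0.043 RPKM). STK31, a Tudor kinase of germ cells, stood at 0.047 to 0.375 RPKM in 4i ESC and N3+PGCLC, 0.817 and 0.673 RPKM in DM+PGCLC and 1.91 to 2.98 RPKM in DZ+PGCLC. It was the 1 gene of the 16 called higher from N3+PGCLC to DM+PGCLC (2.25 ± 0.42, adjusted p = 0.00654). STK31 was also called higher in DM+PGCLC than in 4i ESC (1.33 ± 0.42, adjusted p = 0.0308). TDRD7 was higher in DM+PGCLC than in 4i ESC (1.37 ± 0.26, adjusted p = 0.00386), and KIF17, a kinesin also used in neurons and cilia, was lower than in 4i ESC in all 4 comparisons, by differences of -1.21 to -2.92. GTSF1L was listed at 0 in 8 of the 10 libraries and was called nowhere.

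Of the genes that act with the nuclear PIWI protein in mice, SPOCD1 stood at 7.04 and 7.24 RPKM in d8 DZ+PGCLC and at 0.503 to 2.58 RPKM in the other 8 libraries. It was called higher than in 4i ESC (1.96 ± 0.70, adjusted p = 0.0386) and DM+PGCLC (2.40 ± 0.70, adjusted p = 0.0172). TEX15 moved the other way from 4i ESC, with differences of -2.45 ± 0.37 in N3+PGCLC (adjusted p = 0.00297), -2.81 ± 0.37 in DM+PGCLC (adjusted p = 0.000707) and -1.76 ± 0.37 in d8 DZ+PGCLC (adjusted p = 0.00425). C19orf84 stood between 1.01 and 2.22 RPKM and was called in no comparison. DM+PGCLC, where PIWIL4 was highest, thus had TEX15 at 0.346 and 0.188 RPKM, its lowest levels of all libraries. N3+PGCLC was close, at 0.366 and 0.357 RPKM, and the difference between these groups was not called (-0.36, adjusted p = 0.496). MYBL1, the transcription factor A-MYB that drives pachytene piRNA genes in mice, stood at 3.76 and 5.36 RPKM in 4i ESC. Its levels were 1.18 to 2.59 RPKM in N3+PGCLC and DM+PGCLC and 6.78 to 9.14 RPKM in DZ+PGCLC. Against 4i ESC it was not called in d4 DZ+PGCLC (0.79, adjusted p = 0.0473) or d8 DZ+PGCLC (0.94, adjusted p = 0.0202), both under 2-fold. It was higher in d8 DZ+PGCLC than in DM+PGCLC by 1.80 ± 0.28 (adjusted p = 0.00105) and lower in N3+PGCLC than in 4i ESC (-1.68 ± 0.28, adjusted p = 0.00446). BTBD18, a nuclear protein of the same stage in mice, did not exceed 0.074 RPKM in any library.

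**Figure D3:**
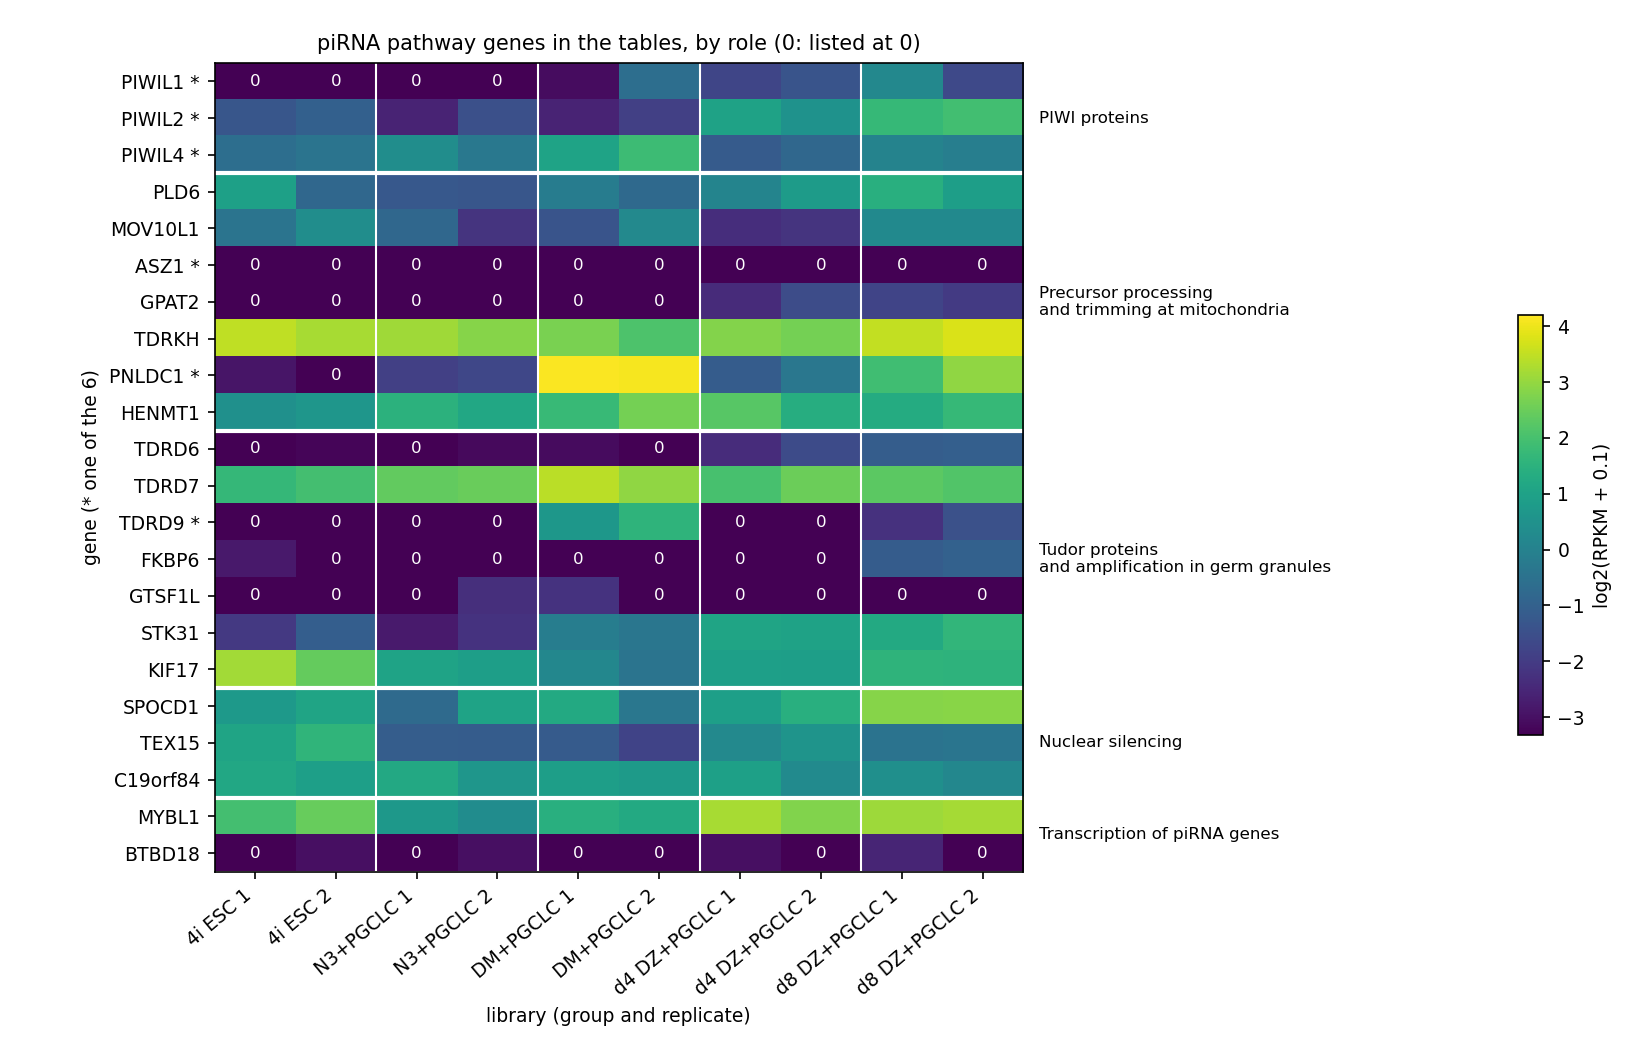
Level of the 22 listed piRNA pathway genes (rows, grouped by role at right, an asterisk for the 6 genes) in the 10 libraries (columns), coloured by log2(RPKM + 0.1), with a 0 where a library is listed at 0. PNLDC1 and TDRD9 stand out in the DM+PGCLC columns, while PIWIL2, GPAT2, TDRD6 and MYBL1 are higher in the DZ+PGCLC columns than in those of DM+PGCLC.

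**Figure D4:**
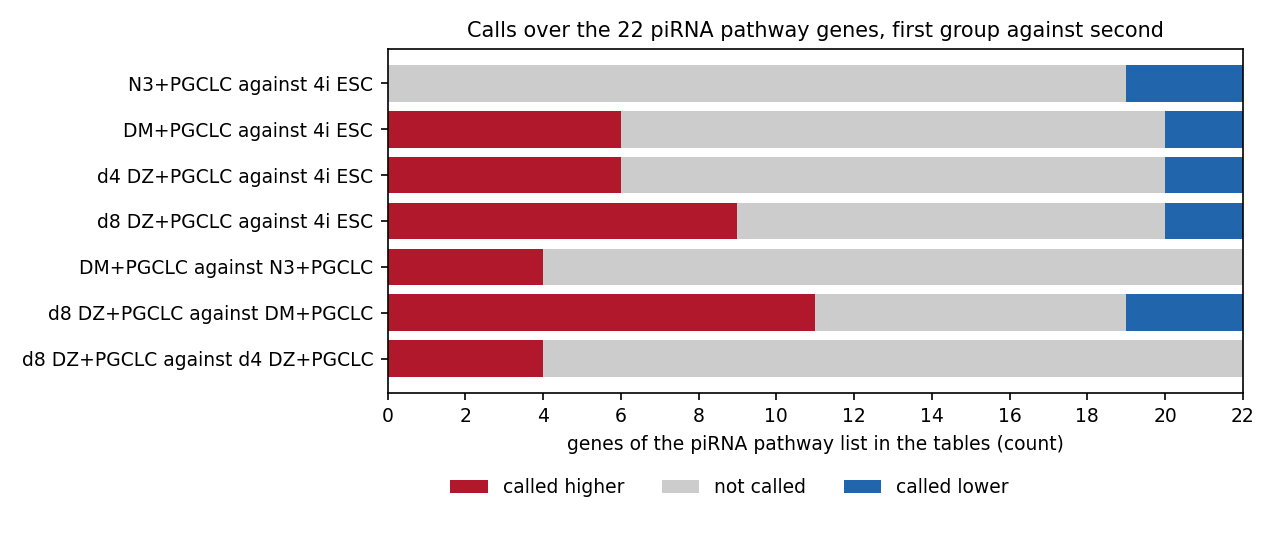
Number of the 22 listed piRNA pathway genes (horizontal axis) called higher (red), not called (grey) or called lower (blue) in 7 comparisons (vertical axis, first group against second). From DM+PGCLC to d8 DZ+PGCLC 11 genes were higher and 3 lower (28.1% and 27.5% of all genes), those 3 being PIWIL4, PNLDC1 and TDRD9.

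The genes whose pattern over the 10 libraries was most like that of each member were taken from 8274 genes outside the list, by Pearson correlation on log2(RPKM + 0.1). These are descriptions over 5 groups of 2 libraries that also differ in depth. For PIWIL2 they were SLC30A1 (0.986), DNAJB2 (0.985) and CPEB4 (0.984), all highest in d8 DZ+PGCLC, and for PIWIL4 they were STRA6 (0.983), NBPF3 (0.974) and MROH1 (0.971), all highest in DM+PGCLC. STRA6, the membrane receptor for retinol uptake, stood at 54.8 ± 14.7 RPKM in DM+PGCLC (SD, n = 2) and at means of 12.7 to 23.1 RPKM elsewhere. PNLDC1 was most like PKD1L1 (0.985) and ABR (0.972), and TDRD9 was most like MAS1 (0.993), KCNC1 (0.99) and GGT2 (0.99), which like TDRD9 were at or near 0 in 4i ESC, N3+PGCLC and d4 DZ+PGCLC. The likeness was weaker for PIWIL1, to TANGO2 (0.93), WAS (0.925) and TACC1 (0.907).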

How the data were processed

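RNA libraries had been made from total RNA (300 ng) with ribosomal RNA depleted. Per the labels and the study's methods, reads were trimmed with Trim Galore and mapped with STAR to GRCh38.p13. HOMER, Bowtie2 2.2.5 and hg38 are also named in the submitters' processing notes. The authors computed RPKM with Cufflinks and deposited log2(RPKM + 0.1) values per library in 3 tables of protein-coding genes that they had selected with edgeR against 4i ESC. The fold change and FDR columns of those tables hold the authors' own comparisons and were not used, nor were 8 enrichment tables. The 3 CUT&RUN samples were not analysed here.

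Tables were joined by gene (9706 genes). Groups were compared with limma 3.58.1 (R 4.3.3, intensity trend) on log2(RPKM + 0.1), with all 10 libraries in the fit, 5 residual degrees of freedom before moderation and Benjamini-Hochberg adjustment per comparison. A group with both libraries listed at 0 has an SD of 0, which lowers the spread that the fit shares over groups for that gene. Of 10 pairwise comparisons 7 are described in full. The fit was tested on simulated data with normal noise and no floor at 0 RPKM. That test therefore does not cover genes with groups listed at 0, such as TDRD9, PIWIL1 and GPAT2. Because the genes had been selected on the same libraries, adjusted p-values cover selected genes only. Comparisons of N3+PGCLC, DM+PGCLC and d8 DZ+PGCLC with 4i ESC repeat that selection, so their calls are not independent of it. An exact permutation test of 2 against 2 libraries cannot go below p = 0.333, so none was used. Read numbers were estimated from the steps of low values and GENCODE 44 gene lengths. They are approximate and carry counting error only.

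The text names the 6 genes, the other listed genes of the pathway, DMRT1, DAZL and, for each member with a measurable pattern, the 3 genes most like it with a highest group mean of at least 1 RPKM. For PNLDC1, 1 of them is not reported here. FUT4, PIWIL4-AS1 and CFTR were named because they overlap a member, and the genes near a member were chosen after their values were seen. The members, lists, markers and tests were chosen with earlier results of these data known. Alternatives were pseudocounts of 0.01 and 1 RPKM, a filter of 1 RPKM in 2 libraries, no intensity trend, the 4 libraries compared alone, median centring, a replicate block and leaving out each library.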

Additional observations from a re-analysis of the deposited data

How the results depend on the processing

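The number of the 6 genes called was within 1.5 times its value under most alternatives, and no called difference changed direction. Among differences that were not called, 3 changed sign without 1 library: PIWIL1 in d8 DZ+PGCLC against DM+PGCLC (-0.15 without DM+PGCLC replicate 1) and against d4 DZ+PGCLC (-0.11 without d8 DZ+PGCLC replicate 1), and PIWIL2 in DM+PGCLC against N3+PGCLC (0.32 without N3+PGCLC replicate 2). With a pseudocount of 1 RPKM, 0 were called in d4 DZ+PGCLC against 4i ESC (2 in the text), 2 in d8 DZ+PGCLC against 4i ESC (4 in the text) and 1 in d8 against d4 DZ+PGCLC (2 in the text). With a pseudocount of 0.01 RPKM, and also without the intensity trend, 1 gene (PNLDC1) was called in N3+PGCLC against 4i ESC. With only the 4 libraries compared, 1 was called in d8 against d4 DZ+PGCLC. The cause was not tested beyond the pseudocount itself. Leaving out each library in turn gave 0 to 0 genes for N3+PGCLC, 3 to 4 for DM+PGCLC, 1 to 3 for d4 DZ+PGCLC and 3 to 4 for d8 DZ+PGCLC against 4i ESC. It gave 2 to 4 for DM+PGCLC against N3+PGCLC, 3 to 4 for d8 DZ+PGCLC against DM+PGCLC and 1 to 2 for d8 against d4 DZ+PGCLC.

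Over all genes, counts of calls changed by more than 1.5 times in few cases. N3+PGCLC against 4i ESC had 2531 calls, 902 with only the 4 libraries and 1607 without 4i ESC replicate 1. DM+PGCLC against N3+PGCLC had 2517, 685 with only the 4 libraries (469 higher) and 1634 without DM+PGCLC replicate 2. Calls in d8 against d4 DZ+PGCLC numbered 2299, 1491 with a pseudocount of 1 RPKM, and 1394 and 1258 without d8 DZ+PGCLC replicate 1 or 2. Median centring moved the share of higher calls: 3373 of 5332 calls were higher in d8 DZ+PGCLC against 4i ESC (2767 and 2658 lower in the text's fit), 2157 of 4110 in d4 DZ+PGCLC (1683 and 2391 lower) and 3495 of 5602 in d8 DZ+PGCLC against DM+PGCLC.

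Replicate numbers did not pair the libraries, since the correlation of their deviations between groups ran from -0.129 to 0.1. With the replicate number as a block, PIWIL4 in DM+PGCLC against N3+PGCLC had an adjusted p of 0.0519 (0.0344 without it), and no other call of a member in the 7 comparisons changed. Depth limits the low genes most: fewer than 20 estimated reads a library lay behind PIWIL1 and PNLDC1 in d4 DZ+PGCLC, PNLDC1 in N3+PGCLC and PIWIL2 in DM+PGCLC, and behind 1 library each of TDRD9 in d8 DZ+PGCLC, PIWIL2 in N3+PGCLC and PIWIL1 in DM+PGCLC, and a listing at 0 does not show absence at this depth.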

Other observations

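Of the 4 other listed genes within 200 kb of PNLDC1 on chromosome 6, 3 also had their highest mean level in DM+PGCLC. The same held for 9 of the 21 listed genes within 200 kb of any of the 6 genes, these 3 included. It held for 23.4% of the 9653 genes above 0 in some library. The pattern near PNLDC1 was noticed after the values were seen. Whether its share differs from the others was not tested, and no explanation was tested. MAS1, a G protein-coupled receptor gene 70.3 kb downstream, had mean levels on the log2(RPKM + 0.1) scale of -3.18 ± 0.08 in 4i ESC, -3.09 ± 0.07 in N3+PGCLC, 4.59 ± 0.13 in DM+PGCLC, -2.74 ± 0.10 in d4 DZ+PGCLC and -0.29 ± 0.82 in d8 DZ+PGCLC (SD, n = 2). Its difference between DM+PGCLC and N3+PGCLC was 7.68 ± 0.40 (SE, limma, adjusted p = 8.3e-05). MRPL18, a mitochondrial ribosomal protein gene that ends 1.8 kb before PNLDC1 on the same strand, was higher by 2.18 ± 0.24 in that comparison (adjusted p = 0.000896). TCP1, a chaperonin subunit gene 10.5 kb away on the other strand, was higher by 1.38 ± 0.21 (adjusted p = 0.00279). All 3 were lower in d8 DZ+PGCLC than in DM+PGCLC, MAS1 by a difference of -4.88 ± 0.40, MRPL18 by -1.38 ± 0.24 and TCP1 by -1.26 ± 0.21 (adjusted p = 5.98e-05, 0.00173 and 0.00143). ACAT2, the fourth listed gene, an enzyme of acetyl-CoA metabolism, was highest in 4i ESC (5.72 ± 0.40) and stood at 4.73 ± 0.01 in DM+PGCLC. At the other loci, the genes highest in DM+PGCLC were 2 of 3 near ASZ1 (WNT2 and ST7), 1 of 1 near PIWIL1 (FZD10), 2 of 8 near PIWIL2 (HR and REEP4), 1 of 3 near PIWIL4 (FUT4) and 0 of 2 near TDRD9. Highest means the top group mean, called or not. For example, ST7 in DM+PGCLC was not called against d4 DZ+PGCLC (limma, adjusted p = 0.648), nor REEP4 against 4i ESC (0.0801).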
